A study of Drosophila melanogaster with 24 samples.

Results

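In the abdomens of adult male fruit flies (Drosophila melanogaster), 180 of the 22575 probes of a microarray, 0.797%, were brighter than in every other group of samples. The 180 probes were chosen by their measured signal. Their mean log2 signal over the 4 abdomen samples lay at least 1 log2 unit, a 2-fold difference, above the highest of the means of the other 5 groups. Their abdomen signal and its distance to the other groups are therefore descriptions, and no test of them is given. All RNA came from the isogenic line WI89, and the labels name no other genotype and no treatment. The other groups were heads of adult males, female pupae, male pupae, pupae of both sexes (mixed-sex pupae) and embryos of both sexes, with 4 samples each. Adult males were 24 to 48 h old when their heads and abdomens were dissected. Pupae were picked as white prepupae, the stage at the start of pupal life, at 0 to 1 h and aged 12 h at 25 °C. Each mixed-sex pupal sample was a blend of male and female pupal RNA in equal parts. Embryos were collected from 24 h of egg laying and so cover many embryonic ages.

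The abdomen of an adult male fly holds the testes, where sperm are made, and the accessory glands, ejaculatory duct and ejaculatory bulb, which make the seminal fluid. It also holds most of the gut, the Malpighian tubules that act as kidneys, fat body, oenocytes, heart and body-wall muscle. Male germ cells are already present in the testes of pupae, whereas the accessory glands grow and mature during pupal life and produce their secreted proteins in the adult. Dissected abdomens are mixtures of all these organs, so fewer cells of a type and less RNA per cell cannot be told apart in these measurements.

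No gene is paired with a probe in the tables used here, so each probe is called by its number in spot order, and several probes may report the same gene. The labelled tissues could not be set against marker genes for the same reason, and neither probe sequences nor genome positions were analysed. A probe can differ because the whole transcript differs or because the exon or junction it reads differs, and these cannot be told apart for a single probe. Levels are log2 values of background-corrected and quantile-normalized intensity with an offset of 50. On this scale the median of all probes was 6.21 to 6.22 in every group, close to the floor set by the offset, and changes of dim probes are understated.

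The labels do not say which samples shared an array. Identical patterns of spot quality marks were used to infer this. By these patterns the 24 samples lay on 12 arrays, each with 1 Cy3-labelled and 1 Cy5-labelled sample. Every group had 2 samples of each dye. The Cy3 samples were the brighter ones, with a median signal over local background of 60.8 to 144 scanner units, against 5.19 to 61.7 for Cy5. All 4 abdomen samples lay on the 8 dimmer arrays. So did all 4 head samples, whereas male pupae replicates 2 to 4 and female pupae replicate 4 lay on bright arrays. Mixed-sex pupae replicates 1 and 2 and embryo replicates 3 and 4 were on bright arrays too. In embryos both bright-array samples were Cy3 and both dim-array samples Cy5. Precision is limited by having 4 samples a group. Whether the replicates came from separate animals is not stated, so the p-values rest on a spread between samples that may be purely technical.

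Across the groups, the median over the 180 probes was highest in abdomens, next in male and mixed-sex pupae, and near the array's median in female pupae and embryos. This order did not hold for the 106 members not called higher in male than in female pupae (below). Their medians were 6.31 in heads, 6.22 in mixed-sex pupae, 6.21 in male pupae, 6.17 in embryos and 6.13 in female pupae. All 5 other group means lay under 6.62, the 75th percentile of such means over all probes, for 67 members, 37.2%, against 64.1% of all probes. The median over the probes was 8.71, 8.53, 8.66 and 8.62 in abdomen replicates 1 to 4. In female pupae it was 6.15, 6.40, 6.18 and 6.27, and in embryos it was 6.16, 6.23, 6.27 and 6.23. Both groups thus lay close to the median of all probes. In male pupae the median was 6.92, 6.68, 6.74 and 6.70, and in mixed-sex pupae it was 6.59, 6.63, 7.06 and 6.59. Male pupae lay above female pupae in all 4 samples. In male heads the median was 6.59, 6.55, 6.23 and 6.15 in replicates 1 to 4. Single members ranged widely, from an abdomen mean of 7.00 to one of 13.14. In male heads 171 of the 180 members, 95%, lay above the detection level, 2 SD of the spot backgrounds over the local background, in at least 3 of 4 samples, against 86.8% of all probes. By sample, the share of members above the level was 90.6%, 100%, 78.9% and 100% in head replicates 1 to 4, with replicates 1 and 3 in Cy5. In abdomens all members did, as did 99.4% of all probes. In each pupal group and in embryos all members did, as did at least 22566 of the 22575 probes. The level therefore separates few probes. All 4 abdomen samples were above all 20 other samples at 179 of the 180 members. Over all 22575 probes 5.38% had this property, and the rule fixes the members' count, so nothing is read from it.

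Samples that shared an array with an abdomen sample stood apart at these probes. They were male heads replicate 1 and replicate 2, male pupae replicate 1 and mixed-sex pupae replicate 3. Compared with the sample of the same group and dye on another array, these 4 samples were higher over the members by a median of 0.22, 0.24, 0.15 and 0.37, in the order given. The same differences over all probes were -0.01, 0.00, 0.01 and 0.02. Mixed-sex pupae replicate 3 was the highest of the 4 mixed-sex samples at 136 of the 179 members with 4 values, 76.0%, against 33.4% of all probes. For male pupae replicate 1 these shares were 55.7% and 35.2%. For male heads replicate 1 they were 44.0% and 29.8%, and for replicate 2 they were 38.9% and 19.5%. Both head replicates on abdomen arrays were thus higher than both head replicates on other arrays. The part of the array partner in these values was not tested. Without the 4 samples, 177 of the 180 probes still met the rule, and 210 probes did in all. Counts of called members are given below with and without them. Of the 21 changes of named probes between groups that follow, all 21 kept their direction and call without them, and none moved by more than 1.34 times.

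The distance of a member to its next highest group ran from 1.00 to 4.54, with a median of 1.30, which is 2.45-fold. It lay under 1.5 for 105 members and between 1.5 and 2 for 40. For 35 members it was at least 2, and for 15 of these at least 3. The next highest group was male pupae for 83 members, male heads for 53, mixed-sex pupae for 17, embryos for 15 and female pupae for 12. These were 46.1%, 29.4%, 9.44%, 8.33% and 6.67% of the members. Over all 22575 probes, male pupae were the highest of the 5 other groups for 16.8% and male heads for 28.0%. Mixed-sex pupae were so for 11.9%, embryos for 24.9% and female pupae for 18.3%. Without the samples that shared an abdomen array, the next highest group was male pupae for 92 members and male heads for 36.

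Probe 3991 had the widest distance. Its log2 signal was 10.96, 9.62, 11.09 and 10.34 in abdomen replicates 1 to 4 and 6.29, 6.16, 5.70 and 5.68 in head replicates 1 to 4. Over the local background, the same spots read 3438, 315.1, 3349 and 919.5 scanner units in abdomens and 7.0, 58.7, 0.3 and 30.8 in heads. Abdomen replicates 1 and 3 are the Cy3 samples. In female pupae the probe lay between 5.69 and 5.75 and in embryos between 5.67 and 5.84, the bottom of the scale. Male pupae gave 6.35, 5.68, 5.68 and 5.75, and mixed-sex pupae gave 5.69, 5.73, 6.45 and 5.72. Outside abdomens, its 4 highest values came from the 4 samples on abdomen arrays. The distance was 4.54, or 23.3-fold, with all samples and 4.78 without those 4.

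Probe 21030 was nearly as far apart, with 10.50, 9.67, 10.58 and 10.22 in abdomens. Its head values were 6.11, 6.14, 5.69 and 5.78, so that its distance was 4.31 (19.9-fold), and 4.48 without the samples on abdomen arrays. Probe 14687 had 11.24, 11.72, 11.14 and 11.29 in abdomens. Its next highest group was mixed-sex pupae, with 6.78, 6.76, 7.88 and 6.62. The value of 7.88 comes from the sample on an abdomen array, and the distance was 4.34 with it and 4.54 without the 4 samples. Heads (6.60 to 7.35), female pupae (6.63 to 6.99), male pupae (6.34 to 7.19) and embryos (6.24 to 6.67) were also above the array's median at this probe.

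The next 3 probes by distance had male heads as their next highest group through the samples on abdomen arrays. Probe 18984 read 10.62, 10.36, 10.46 and 10.80 in abdomens and 6.91, 7.03, 5.84 and 5.81 in heads. Probe 14751 read 10.86, 10.02, 10.66 and 10.28 in abdomens and 6.72, 6.99, 5.84 and 6.15 in heads. Probe 19640 read 10.52, 10.50, 10.45 and 10.82 in abdomens and 7.41, 7.38, 5.87 and 5.82 in heads. At all 3 probes, head replicates 1 and 2 lay above replicates 3 and 4. Their distances of 4.16, 4.03 and 3.95 became 4.40, 4.46 and 4.49 without the 4 samples.

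Among the 10 widest, probe 2452 showed little of this. It had 9.78, 9.16, 9.94 and 9.80 in abdomens and 6.25, 6.34, 6.31 and 6.13 in heads. Its 20 values outside abdomens stayed between 6.07 and 6.43, and its distance was 3.37 with all samples and 3.40 without the 4. Probe 8243 had 10.39, 10.86, 10.42 and 10.45 in abdomens. Its means in the other groups lay between 6.68 and 6.97, with single samples from 6.13 to 7.30. Probe 1947 had an abdomen mean of 10.05 ± 0.45 (SD, n = 4) and a distance of 3.76. Probe 2593 had 10.03 ± 0.29 (SD, n = 4) and a distance of 3.51. None of the 10 was called between female and male pupae, between embryos and mixed-sex pupae, or between heads and either male pupae or embryos in the limma fit described next. The smallest limma adjusted p among them was 0.144, for heads against embryos at probe 14687.

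At the edge of the rule the members merge into the other probes. The 5 members just inside, probes 16618, 14739, 19444, 8684 and 11749, had distances of 1.0008 to 1.0027. The 5 probes just outside, numbers 15544, 18959, 13414, 9380 and 11252, had distances of 0.9919 to 0.9991. Male pupae were the next highest group for 4 of the 5 just inside and 4 of the 5 just outside.

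The rule sets a ceiling on the other 5 groups but does not fix which of them is higher, so their differences were tested. All 5 of these group means lay under 6.62 for 64.1% of all probes, against 37.2% of members. Changes of dim probes are understated, so the shares called over all probes are not matched to the members for brightness. A linear model with group and dye was fitted to all 22575 probes and 24 samples with limma, and a probe was called at a Benjamini-Hochberg adjusted p under 0.05 over all probes. The first comparison asked which members already differ between the sexes in pupae. Higher levels in male than in female pupae were called at 74 of the 180 members, 41.1%, and higher levels in females at 0. Over all probes, 4.42% were called higher in males and 0.651% higher in females. An unadjusted p under 0.05 was found at 78 members, 43.3%, and at 13.2% of all probes. The called differences ran from 0.58 to 3.55 log2 units with a median of 1.51, and 57 were at least 1. Over all 180 members the median difference was 0.19, against -0.02 over all probes. This median depended on the fit. It was 0.10 and 0.05 with the array as a random or fixed block (intra-array correlation 0.49) and 0.15 without the samples on abdomen arrays. The count of called members was 74 and 73 with the blocks. On dim arrays alone the median was 0.47, but male pupae had only replicate 1 there, which lay on an abdomen array. No count is given for that fit. The 74 probes are 7.41% of the 998 probes called higher in male pupae. With the samples on abdomen arrays left out 74 members were again called, all higher in males.

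Probe 3468 showed the largest sex difference among the members. It read 10.28, 10.41, 10.15 and 10.74 in male pupae and 6.36, 7.87, 6.47 and 6.69 in female pupae, and the lowest male lay well above the highest female sample. Male pupae were higher by 3.55 (SE 0.33, limma adjusted p = 1.72e-07). Abdomens were higher still, with 11.83, 11.68, 12.29 and 12.05. Probe 20466 followed, with 10.14, 10.27, 10.07 and 10.55 in male and 6.39, 7.74, 6.55 and 6.78 in female pupae, a difference of 3.39 (SE 0.30, limma adjusted p = 1.02e-07). Probe 323 read 11.04, 11.42, 10.95 and 11.35 in male and 7.22, 8.84, 7.47 and 7.75 in female pupae, a difference of 3.37 (SE 0.27, limma adjusted p = 2.34e-08). Female replicate 2 was the highest female sample at all 3 probes, and it shared its array with mixed-sex pupae replicate 4. In heads, the same 3 probes read 7.76 or more in replicates 1 and 2, the samples on abdomen arrays, and 7.13 or less in replicates 3 and 4.

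Members that differed by sex were not the ones with the widest distance to the next group. None of the 74 had a distance of 2 or more, and their median was 1.17. For 73 of them male pupae were the next highest group, and a probe bright in male pupae has a smaller distance by construction. Of the 106 other members 35 had a distance of at least 2, and their median was 1.54. Sex differences of these 106 ranged from -0.48 to 0.49, with a median SE of 0.14, so small differences between the sexes could not be detected here.

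Mixed-sex pupae allowed a further look at the 57 members at least 1 log2 unit higher in males. At all 57 the mean of the 4 mixed samples lay between the female and male means, which need not hold for each single sample. A blend of both RNAs places it there by design, so nothing is read from this count. On the linear scale, a sample's position between the female mean (0) and the male mean (1) had a median over the 57 probes of 0.48, 0.50, 0.85 and 0.61 in mixed-sex replicates 1 to 4. An equal blend puts this position midway when both RNAs label alike and the processing keeps proportions. The mean was 0.61 ± 0.17 (SD, n = 4). The highest value belongs to replicate 3, the sample on an abdomen array, and the other 3 lay at 0.61 or below.

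Embryos and mixed-sex pupae were compared for the stage difference. Pupae were higher at 76 members, 42.2%, and embryos at 7, 3.89%. Over all probes 6.23% were called higher in mixed-sex pupae and 7.28% higher in embryos. The pupa-higher members differed by a median of 1.06 log2 units and 43 of them by at least 1. Most of them are the sex-dependent members again, since 72 of the 74 male-higher probes also passed here with pupae above embryos. Mixed-sex pupae contain male RNA, so these calls are not separate from the sex difference. Without the samples on abdomen arrays 70 members were higher in pupae and 9 in embryos, and with the array as a random block 78 and 12.

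Probe 10230 had the largest stage difference of the members. It read 10.29, 10.81, 11.03 and 10.53 in mixed-sex pupae and 6.61, 6.97, 6.81 and 6.82 in embryos, 3.86 lower in embryos (log2 change -3.86, SE 0.26, limma adjusted p = 2.43e-09). Probe 17376 followed at -3.31 (SE 0.28, limma adjusted p = 1.6e-08) and probe 323 at -3.29 (SE 0.27, limma adjusted p = 1.12e-08). These 3 probes were also the brightest members in abdomens, with means of 13.04 ± 0.35 (SD, n = 3) at probe 10230, 13.14 ± 0.34 (SD, n = 4) at probe 17376 and 13.03 ± 0.29 (SD, n = 4) at probe 323. Quantile normalization gives equal ranks equal values, so single values such as 13.42 and 12.97 recur among the brightest spots of different samples.

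The 7 members higher in embryos had smaller differences, with a median of 0.53. Their number was 0 on dim arrays alone, and it was 3 or 4 when mixed-sex pupae replicate 1, 2 or 4 or embryo replicate 1, 2 or 3 was left out. Probe 14660 read 8.09, 8.53, 9.16 and 9.17 in embryos and 7.34, 7.19, 8.09 and 7.45 in mixed-sex pupae, a difference of 1.22 (SE 0.22, limma adjusted p = 0.000354). The lowest embryo value equals the highest pupal value to 2 decimals, and that pupal sample lay on an abdomen array. Probe 13390 was 0.99 higher in embryos (SE 0.21, limma adjusted p = 0.00178), with 8.59 to 9.15 against 7.54 to 8.09. On dim arrays alone the differences were 0.50 and 1.03 and neither passed (limma adjusted p = 0.253 and 0.0509). Probe 14074 was 0.69 higher (SE 0.19, limma adjusted p = 0.0157). Leaving out any 1 of mixed-sex pupae replicates 1 and 2 and embryo replicates 1 and 2 ended its call (limma adjusted p of 0.0616, 0.0512, 0.0712 and 0.0537).

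Adult male heads were compared with male pupae, which differ from them in age and in body part. Male pupae were higher at 71 members, 39.4%, and heads at 18, 10% of the members. Over all probes 9.79% were called higher in male pupae and 9.96% higher in heads, so the share of members higher in heads was near that of all probes. Of the 74 members with a sex difference, 70 were called lower in heads than in male pupae. Male pupae were the next highest group for 73 of the 74, so lower head means follow at these. Both comparisons use the same male pupal samples, so these calls are not separate from the sex difference. The pupa-higher members had a median change of -1.38 from pupae to heads. Probe 10230 again changed most, at -4.43 (SE 0.28, limma adjusted p = 2.23e-10). It read 11.02, 11.96, 11.39 and 11.68 in male pupae and 7.53, 6.95 and 6.68 in head replicates 2 to 4, with 1 head and 1 abdomen value left out because of a quality mark. The change of probe 323 was -3.74 (SE 0.27, limma adjusted p = 5.33e-10) and that of probe 17376 was -3.44 (SE 0.28, limma adjusted p = 3.27e-09). Without the samples on abdomen arrays 71 members were higher in male pupae and 17 in heads. The median change over all members from male pupae to heads was -0.10. On dim arrays alone, where replicate 1 was the only male pupal sample, it was -0.34.

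The 18 members higher in heads than in male pupae had a median level of 7.68 in heads, 6.47 in male pupae and 9.62 in abdomens. Their share was near that of all probes, as given above. Probe 16278 read 8.36, 8.66, 8.23 and 8.69 in heads, 6.64, 6.15, 6.11 and 6.17 in male pupae and 9.68, 9.31, 9.90 and 9.47 in abdomens. Heads were higher by 2.22 (SE 0.17, limma adjusted p = 1.59e-09), and head samples on and off abdomen arrays did not separate. Probe 9572 was 1.84 higher in heads (SE 0.16, limma adjusted p = 9.06e-09), with 8.02, 8.55, 8.29 and 8.65 against 6.31 to 6.79. Probe 14660, described above for embryos, was 1.71 higher in heads than in male pupae (SE 0.22, limma adjusted p = 2.86e-06). It read 8.81, 9.19, 9.21 and 8.93 in heads and 11.03, 11.36, 11.35 and 11.32 in abdomens.

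Heads and embryos differed at few members. Heads were higher at 15, 8.33%, and embryos at 3, 1.67%, while 8.27% of all probes were called higher in heads and 9.68% higher in embryos. The share higher in heads was thus close to that of all probes. Probe 20333 read 8.14, 8.40, 8.21 and 8.05 in heads and 6.13, 6.23, 6.20 and 6.11 in embryos, a difference of 2.03 (SE 0.17, limma adjusted p = 1.01e-08). Pupae lay between them at this probe, with a mean of 7.11 ± 0.36 (SD, n = 4) in males. Probe 6372 was 2.02 higher in heads (SE 0.19, limma adjusted p = 5.86e-08) and probe 3337 was 1.82 higher (SE 0.20, limma adjusted p = 3.6e-07). Toward embryos, probe 8978 changed by -0.57 (SE 0.14, limma adjusted p = 0.00398), but its embryo values of 6.35, 6.24, 7.10 and 7.21 were lower in the Cy5 samples, both on dim arrays, than in the Cy3 samples, both on bright arrays, and overlapped the head values of 6.03 to 6.28. On dim arrays alone its change was -0.20 (limma adjusted p = 0.26). For probe 22496 the change was -0.57 (SE 0.13, limma adjusted p = 0.00334), with 6.72 to 7.20 in embryos against 6.23 to 6.55. For probe 5598 it was -0.50 (SE 0.16, limma adjusted p = 0.0278, 3 head values). Its call ended when embryo replicate 1 or 3 or head replicate 3 or 4 was left out (limma adjusted p of 0.0761, 0.0517, 0.128 and 0.163). Without the samples on abdomen arrays 14 members were higher in heads and 5 in embryos. The count toward embryos was 6 without embryo replicate 2 and 5 without head replicate 1, and with 75th percentile scaling the split was 11 to 0.

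By these 4 comparisons the members fall into unequal classes. The 74 male-higher members had median levels of 6.40 in female pupae, 7.88 in male pupae, 7.54 in mixed-sex pupae, 6.36 in embryos, 6.53 in heads and 9.05 in abdomens. Of them, 68 (91.9%) were called in all of the sex, stage and head against male pupae comparisons, with pupae on the higher side. Among all 998 male-higher probes 64% were. The 3 comparisons all involve male pupal RNA, so these calls are not separate from each other. A further 82 members, 45.6%, were called in none of the 4 comparisons, against 69.7% of all probes. Their medians lay between 6.08 and 6.18 in all 5 other groups, under the median of all probes, and at 8.09 in abdomens. Of the 35 members at least 2 units above their next group, 32 belong to this class. The other 24 comprise the 18 members higher in heads than in male pupae and 6 with other calls. Without the samples on abdomen arrays the same 74 members were male-higher, 66 of them in all 3 comparisons, 17 were higher in heads, 83 were called in none and 6 had other calls.

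Replicate abdomens agreed to different degrees. The SD over the 4 abdomen samples had a median of 0.24 over the members and 0.11 over all probes, most of which sit near the floor. It was largest, at 0.67, for probe 3991, whose Cy3 samples were the highest. Probe 3337 had 10.30, 9.21, 10.38 and 9.66 in abdomens, and probe 14411 had 9.04, 10.24, 9.28 and 9.50. Replicate 2 was the lowest sample for the former and the highest for the latter. The smallest SDs were 0.05 for probe 15441, with 9.64, 9.59, 9.51 and 9.56, 0.05 for probe 8420, with 9.41, 9.36, 9.36 and 9.28, and 0.06 for probe 10610, with 7.78, 7.92, 7.88 and 7.88.

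An abdomen sample that took no part in the choice can be read at the probes chosen without it. With replicate 1, 2, 3 or 4 left out, the rule gave 181, 194, 185 and 173 probes, of which 174, 162, 168 and 168 are among the 180. In the sample left out, 143 of 181 probes with a value lay at least 1 unit above the highest other group mean for replicate 1 and 131 of 193 for replicate 2. The counts were 139 of 182 for replicate 3 and 151 of 172 for replicate 4. These shares were 79.0%, 67.9%, 76.4% and 87.8%, while between 0.877% and 1.83% of all probes did so in the same sample. Nearly all of the rest were still above the other groups, with 1 probe below them in replicate 2 and 0 in the other 3 samples. The other groups' means are the same on both sides of this reading, and the abdomen replicates may be technical repeats. The shares thus describe how far the abdomen samples agree and are no test of the members. The median distance in the samples left out was 1.23 to 1.37.

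The same rule turned to male heads chose 198 probes, which serve as a comparison from adult males of the same age. No probe of these 198 was called between male and female pupae in either direction, compared with 74 of the 180 abdomen probes. Over all probes, 4.42% were called higher in males and 0.651% higher in females. In male pupae the head probes had a median of 6.29 to 6.38, near the floor, where changes are understated. Between embryos and mixed-sex pupae, embryos were higher at 19 of the head probes (9.6%) and pupae at 9 (4.55%), shares near those of all probes given above. They showed the same array pattern as the abdomen probes. Their median was 6.72 and 6.74 in the 2 abdomen samples that shared arrays with heads, and 6.43 and 6.42 in the other 2. In embryo replicate 2, on a head array, it was 6.75, against 6.31 to 6.42 in the other embryos. Female pupae replicate 3, also on a head array, had 6.67, against 6.38 to 6.44 in the other female pupae.

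The members were spread over the array of 105 rows and 215 columns. The first, middle and last 35 rows held 47, 71 and 62 of them, and 14 members touched another member. Quality marks removed 2 values each from 13 members. A dye difference was called at 13 members, 11 higher in Cy5 and 2 higher in Cy3, against 3.54% and 3.57% of all probes, so that Cy5-higher members made up 6.11%. Probe 20193, the largest, was 0.68 higher in Cy5 (SE 0.13, limma adjusted p = 0.00704). The count was unstable. It was 8 without female pupae replicate 1, 7 without replicate 2 and 7 without replicate 3, 8 without male heads replicate 1 or 4, and 1 without the 4 samples on abdomen arrays. With 75th percentile scaling, 19 members were higher in Cy5 and 17 in Cy3.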

How the data were processed

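For each sample the authors deposited a scanner table that lists, per the file headers, intensity of signal and of local background and a quality mark for every spot. Neither the scanner software nor the mark's meaning is given in the sources used here. A deposited table of natural log values matched, to 1e-07, ln of the difference between mean signal and mean background and was used as an alternative. In R 4.3.3 with limma 3.58.1, mean signal was corrected for the median background by normexp with an offset of 50. Spots with a mark above 0 were dropped, log2 values were quantile normalized over 24 samples, and group means gave the 180 probes. Identical mark patterns paired samples into 12 arrays, split at the widest step in net signal into bright and dim ones. The limma fit had group and dye terms, 17 residual degrees of freedom and an intensity trend, and its code was checked on simulated data. Members, lists and tests were chosen with earlier results of these data known. Named were the 10 widest distances, 5 probes on each side of the threshold, up to 3 members per direction and comparison, and the 3 with the largest SD, the smallest SD and the highest signal. A list of marker genes could not be used without gene names. Leaving out the 4 samples that shared an array with an abdomen was chosen after seeing the data. The other alternatives changed background correction, offset, scaling, marked spots, blocks, thresholds and the samples used.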

Additional observations from a re-analysis of the deposited data

Results flagged for a closer look

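Of 76 groups of 4 values examined, 5 held a sample far from the other 3, and chance gives about 5% of such tests. The median of the 180 members was 7.06 in mixed-sex pupae replicate 3, against 6.59 to 6.63 in the other mixed-sex samples. At probe 14687 the same sample read 7.88, against 6.62 to 6.78. Male pupae replicate 1 read 6.77 at probe 1947, against 6.10 to 6.18 in the other male pupae, and 6.64 at probe 16278, against 6.11 to 6.17. These 4 values belong to samples that shared an array with an abdomen sample, and the part of the shared array was not tested. At probe 8243, male abdomens replicate 2 read 10.86, against 10.39 to 10.45 in the other abdomens.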

How the results depend on the processing

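The number of probes meeting the rule depended on how low signals were treated. It was 490 with an offset of 10, 428 with plain background subtraction and 434 with the deposited natural log values, each including all 180, and 776 and 35 at distances of 0.5 and 2. It was 158 with Cy3 samples alone and 224 with Cy5 samples alone, and leaving out 1 abdomen sample gave 173 to 194. Counts of members called by sex, stage and heads against male pupae stayed within 1.5 times of those reported. This held under every alternative run that kept at least 2 samples in each compared group. Leaving out 1 sample gave 72 to 74, 74 to 80 and 86 to 89 calls. Heads against embryos gave 18 calls, 16 to 21 without 1 sample, and 11 with 75th percentile scaling, all higher in heads. That scaling moved the median of all probes by 0.26 for heads against male pupae, 0.20 for heads against embryos and -0.17 for males against females. The replicate block turned no named probe's sign and gave 72, 83, 89 and 18 calls. Same-numbered samples did not deviate together in every pair, with correlations of -0.07 to 0.72 for the sexes, so the numbers were not taken as pairs. Calls over all probes fell from 1145 to 537 for sex and from 3051 to 1652 for stage with percentile scaling, and rose from 4459 to 11372 for heads against male pupae and from 1604 to 14914 for the dye. They were 1510 for stage on bright arrays alone. Only 1 male pupal sample lay on dim arrays and only 1 female pupal sample on bright arrays. Calls that rest on either of these are not given. The 13 dye calls became 36 with percentile scaling (19 higher in Cy5), 37 and 33 with the array as a random or fixed block, 6 with the replicate block, 0 on bright arrays alone, 2 at an adjusted p of 0.01, 1 without the samples on abdomen arrays, and 7 to 15 without 1 sample. The dye change of probe 19412 turned from -0.17 to 0.15 with percentile scaling. The cause of these shifts was not tested. Of 420 single-probe values under alternatives other than leaving out 1 sample, 42 no longer passed and 1 changed sign. Of 288 with 1 sample left out, 62 no longer passed and 0 changed sign. Low signal over background, lowest in Cy5 samples on dim arrays, limits what can be seen near the floor.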
